A study of Mus musculus with 12 samples.

Results

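The proteasome is the protease complex that degrades proteins tagged with ubiquitin. Its subunit genes were taken as the rows of the deposited count table that are protein-coding and whose symbol begins with Psma, Psmb, Psmc or Psmd followed by a digit, which gave 40 of 47729 genes. They were grouped by place in the complex: 14 core genes (Psma1 to Psma7 and Psmb1 to Psmb7), 20 cap genes (Psmc1 to Psmc6 and Psmd1 to Psmd14), 3 immunoproteasome genes (Psmb8, Psmb9 and Psmb10) and 2 core genes known from other tissues (Psma8 and Psmb11). The last gene, Psmc3ip, met the rule by its symbol alone: it encodes a protein of meiotic recombination and is no subunit. A further 4 genes with such symbols, Psmb5-ps, Psmb6-ps, Psmb6-ps2 and Psmb7-ps2, are pseudogenes and were left out.

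RNA sequencing had been carried out on muscle of male mice with a C57BL/6 strain background, all aged 5 months. The 12 libraries formed 4 groups of 3: NRF2-KO mice with Treadmill exercise, NRF2-KO mice without exercise, wild-type mice with Treadmill exercise and wild-type mice without exercise, called here treadmill or sedentary knockout (KO) and treadmill or sedentary wild type (WT). The labels name neither the muscle, the exercise regimen nor the allele of the knockout, and they do not say that the samples of a group came from separate animals, so p-values reflect only how far these samples spread, which may be technical. The design asks what loss of the transcription factor NRF2 and treadmill exercise, alone and together, did to muscle transcripts.

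Total counts were 21232040 to 29990968 per library. Levels are given as CPM, a gene's share of its library's counts on the usual per-million scale after scaling with edgeR's TMM factors. Nfe2l2, which encodes NRF2, had 2.14 to 3.23 CPM in the KO libraries and 35.3 to 41.8 CPM in the WT libraries, with no exception to the genotype labels. Markers of skeletal muscle fibres summed to 98269 to 120806 CPM in all 12 libraries. Libraries had been sequenced on 4 lanes. Replicate 1 of sedentary WT was on lane 7 and replicate 1 of treadmill WT on lane 8, the other 10 libraries were on lanes 3 and 4, and lanes 7 and 8 held no KO library. Most sign counts, and the values of named genes that these 2 libraries move most, are also given without 1 or both of them.

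In the proteasome a core particle of stacked rings cuts proteins, and a cap recognises ubiquitin, unfolds the substrate and feeds it into the core. The outer rings are encoded by the Psma genes and the inner rings by the Psmb genes, of which Psmb5, Psmb6 and Psmb7 encode the catalytic subunits; interferon-gamma induces the alternatives Psmb8, Psmb9 and Psmb10, which take their places in the immunoproteasome. The Psmc genes encode the ATPase ring of the cap and most Psmd genes its other subunits. Psmd5, Psmd9 and Psmd10 encode chaperones of cap assembly and are counted here among the cap and subunit genes. In muscle the proteasome takes part in protein turnover and in atrophy. When proteasome activity falls, the NRF2 relative NFE2L1 raises transcription of subunit genes in mammalian cells, and NRF2 itself has been reported to act on the Psmb5 promoter in mouse cells through antioxidant response elements.

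Promoter windows, from 250 bases before to 50 bases after the start of a gene, were read from RefSeq (GRCm38.p6), which gave 35 windows for 33 of the 40 genes. The letters of the antioxidant response element, TGACNNNGC, searched on both strands, stood in 5 of the 35 windows (14.3%), against 12.4% of 32851 windows of all genes. The genes with the letters are shown because their windows match the letter pattern of the element that NRF2 is known to bind. Such matches were about as frequent in the windows of all genes, and capitals mark them. The windows are chr14:54617946-54618245 on the minus strand for Psmb5, chr11:70525107-70525406 on the plus strand for Psmb6, chr14:45329574-45329873 on the plus strand for Psmc6, chr11:107479278-107479577 on the plus strand for Psmd12 and chr5:123227940-123228239 on the plus strand for Psmd9.
Psmb5: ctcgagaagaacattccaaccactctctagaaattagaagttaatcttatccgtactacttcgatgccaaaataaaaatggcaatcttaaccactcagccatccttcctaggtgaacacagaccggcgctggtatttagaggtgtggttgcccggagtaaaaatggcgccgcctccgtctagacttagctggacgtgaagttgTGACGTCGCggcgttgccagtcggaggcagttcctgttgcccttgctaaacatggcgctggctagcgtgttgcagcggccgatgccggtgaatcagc
Psmb6: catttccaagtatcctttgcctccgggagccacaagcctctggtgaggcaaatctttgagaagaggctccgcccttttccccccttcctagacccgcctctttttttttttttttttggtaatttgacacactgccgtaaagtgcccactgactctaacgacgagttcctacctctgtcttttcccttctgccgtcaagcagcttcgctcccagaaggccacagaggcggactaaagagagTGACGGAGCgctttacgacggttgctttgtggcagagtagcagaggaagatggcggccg
Psmc6: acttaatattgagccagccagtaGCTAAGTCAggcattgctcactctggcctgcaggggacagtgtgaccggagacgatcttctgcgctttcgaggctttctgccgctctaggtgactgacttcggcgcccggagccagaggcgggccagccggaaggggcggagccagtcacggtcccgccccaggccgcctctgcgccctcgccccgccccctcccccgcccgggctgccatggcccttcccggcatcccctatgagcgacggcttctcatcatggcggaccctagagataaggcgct
Psmd12: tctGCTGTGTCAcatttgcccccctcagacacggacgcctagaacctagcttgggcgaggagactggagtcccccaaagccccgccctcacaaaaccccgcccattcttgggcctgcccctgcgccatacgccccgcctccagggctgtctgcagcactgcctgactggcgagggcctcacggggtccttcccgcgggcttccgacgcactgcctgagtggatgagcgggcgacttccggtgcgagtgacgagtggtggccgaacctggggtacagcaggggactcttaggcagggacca
Psmd9: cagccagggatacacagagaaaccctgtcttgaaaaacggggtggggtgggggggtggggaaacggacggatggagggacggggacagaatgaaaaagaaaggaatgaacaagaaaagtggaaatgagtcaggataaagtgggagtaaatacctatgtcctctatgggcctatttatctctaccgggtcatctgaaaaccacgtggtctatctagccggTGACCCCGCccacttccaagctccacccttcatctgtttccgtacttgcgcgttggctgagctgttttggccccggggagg

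The match began 47 bases before the start in Psmb5, 9 bases before it in Psmb6 and 31 bases before it in Psmd9, and lay on the other strand in Psmc6 and Psmd12. The letters of the interferon-stimulated response element, searched on both strands as GAAA repeated after a gap of 2 bases, stood in the windows of Psmb3, Psmd4 and Psmd9 (8.6% of the 35 windows, against 3.44% of all windows) and in none of the 3 windows of Psmb8, Psmb9 and Psmb10. These searches describe letters in a window and no binding was measured.

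Of the 40 genes, 38 passed the filter on low counts and were tested. Psma8, a core subunit gene of testis, had 0 to 4 counts per library and 26 counts in all. Psmb11, the core subunit gene of thymic epithelium, had 0 counts in every library, which allows up to 3 counts per library, or 0.1 to 0.141 CPM, by counting error alone. The other core genes and all cap genes were present in every library.

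Levels are compared between genes as CPM per kilobase, with the gene lengths recovered from the authors' RPKM table. Core genes had a median of 58.2 CPM per kilobase and cap genes of 40.5 CPM per kilobase over all 12 libraries; the immunoproteasome genes had a median of 1.58 CPM per kilobase. Psma6 and Psmb1 of the core (149 CPM per kilobase each) and the ATPase gene Psmc6 (133 CPM per kilobase) stood highest. Among the tested genes the lowest were Psmb9 with 0.861 CPM per kilobase, Psmc3ip with 1.32 and Psmb8 with 1.58. Core genes spanned a 13.6-fold range, with Psma5 (10.96 CPM per kilobase), Psma3 (11.1) and Psmb3 (12.0) at its foot. The neighbours Psma5 and Psma3 did not differ beyond their spread over libraries (SD 0.671 and 0.704 CPM per kilobase), and neither did Psma6 and Psmb1 (SD 12.4 and 9.22).

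Within the cap the low end was held by Psmd9 (1.99 CPM per kilobase), Psmd5 (3.39) and Psmd10 (8.79), which encode chaperones of cap assembly and leave the finished complex. The 17 other cap genes had a median of 48.0 CPM per kilobase and a range of 10.7 to 133. The order depends on the length used. With exon lengths of the GENCODE M21 annotation Psmb1 came to 33.5 and Psma2 to 23.0 in place of 89.4 CPM per kilobase, and Psmc6 to 59.3. The core median came to 41.6, beside a cap median that stayed at 40.5 CPM per kilobase. Reads shared with copies also bear on it: 54.1% of the 50-base stretches of Psmb5 and 50% of those of Psma5 occur in transcripts of other genes. For Psmb5 these are Gm3375, the pseudogene Psmb5-ps and Mir686, which lies on the same strand and shares 109 exon bases, and all 3 had 0 counts in every library. How shared reads were counted is not given in the sources used here. If they were left out, the levels of Psmb5 and Psma5 given here are too low.

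**Figure D1:**
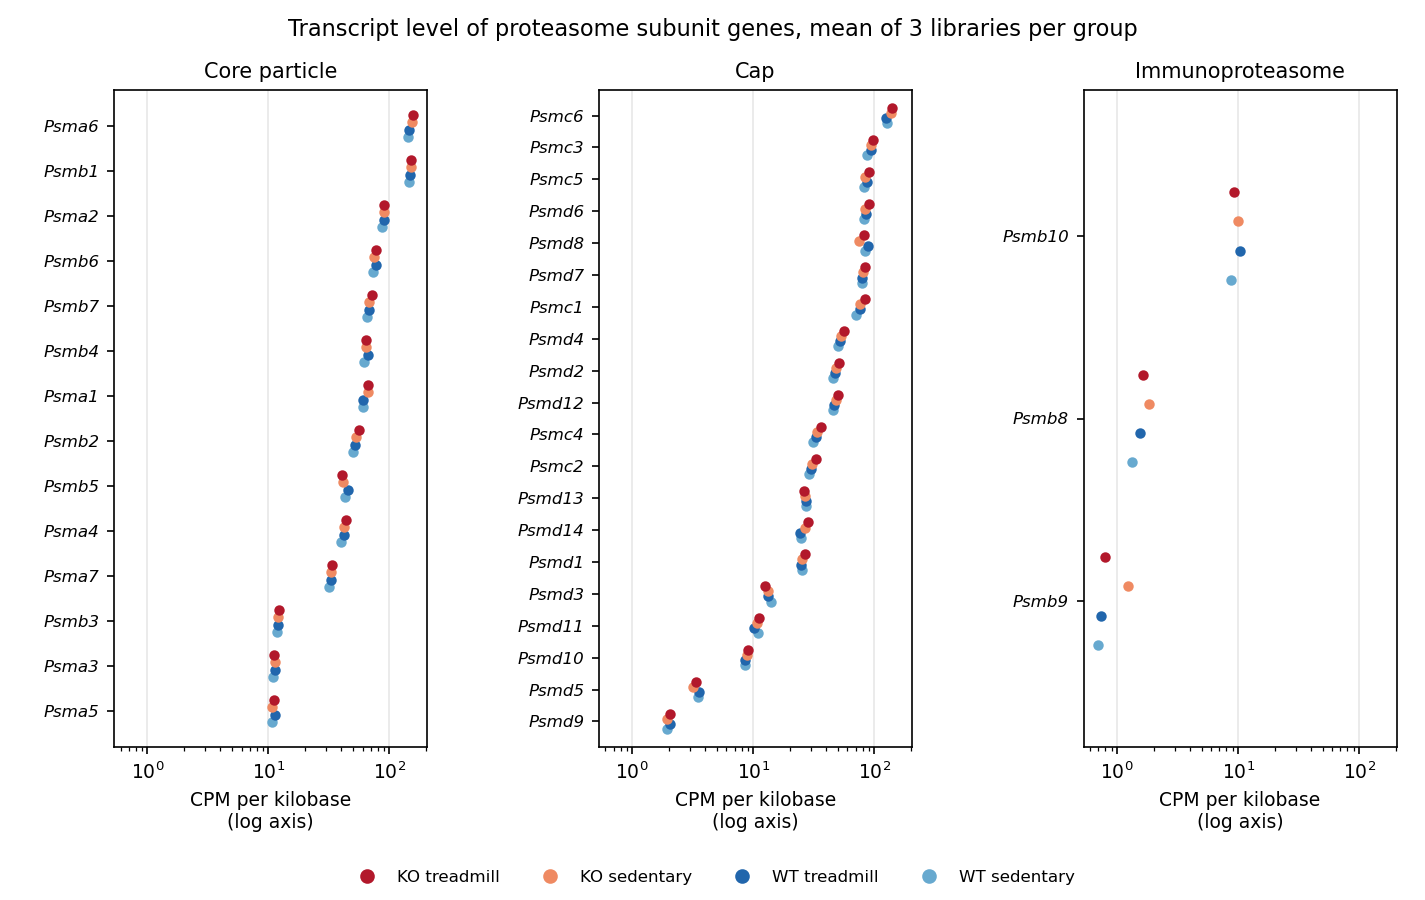
Mean level of 37 proteasome subunit genes in each group, in CPM per kilobase on a log axis, with 1 point per group of 3 libraries and genes ordered by level within the core, the cap and the immunoproteasome. The 4 group means of a core or cap gene lie close together, while genes differ up to 13.6-fold within the core; Psmb8 and Psmb9 lie near 1 CPM per kilobase, and the mean of Psmb9 in sedentary KO libraries stands to the right of its other 3 means.

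The plot of levels by group shows how little the groups moved the core and cap genes beside the distance between genes. Over the 12 libraries the coefficient of variation was 3.91% to 9.27% for the 14 core genes, 4.48% to 11.9% for the 20 cap genes and 11.1% to 31.4% for the 3 immunoproteasome genes. The median core level per library divided by the median cap level averaged 1.43 ± 0.0755 in treadmill KO, 1.44 ± 0.0528 in sedentary KO, 1.41 ± 0.0382 in treadmill WT and 1.42 ± 0.118 in sedentary WT (SD, n = 3 each). These ratios overlapped in all 4 groups.

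Loss of NRF2 left the core and cap transcripts near their wild-type levels. None of the 38 tested genes passed in the averaged knockout effect, in which 0.69% of the 14194 genes tested were called. In sedentary mice the count was also 0, where 0.19% of genes were called, and in treadmill mice 0, where 0.162% were called. At an unadjusted p under 0.05 the edgeR test held 4 of the 38 genes in the averaged effect (12.4% of all genes), 2 in sedentary mice (7.65%) and 2 in treadmill mice (6.72%). DESeq2 and limma-voom called 0 of them in all 3 comparisons as well.

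The width of the intervals says how large a change these libraries could hide. In the averaged knockout effect the 95% intervals of all 34 core and cap genes lay within 1.3-fold in either direction. The lowest bound was that of the cap gene Psmd8, 0.805-fold, and the highest that of the core gene Psma1, 1.23-fold. Within sedentary mice alone 33 of the 34 intervals lay within 1.3-fold, within treadmill mice alone also 33, and all 34 lay within 1.5-fold in each.

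The 3 catalytic core genes had these values. Psmb5, on chromosome 14 at 54614119 to 54618022 (GRCm38), encodes the chymotrypsin-like subunit. It had 34.1, 36.9 and 34.8 CPM in treadmill KO and 36.3, 37.9 and 34.6 CPM in sedentary KO, against 39.7, 38.0 and 40.1 CPM in treadmill WT and 37.5, 36.4 and 38.1 CPM in sedentary WT. The treadmill KO libraries all lay below the treadmill WT libraries, while the sedentary groups overlapped. Its log2 fold change for the knockout was -0.10 averaged over exercise states (SE 0.05, adjusted p = 0.432) and -0.16 in treadmill mice (adjusted p = 0.735), and neither passed.

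Psmb6, the caspase-like subunit gene, had 139.9, 149.5 and 142 CPM in treadmill KO and 142, 139.9 and 141 CPM in sedentary KO, against 142, 145 and 146 CPM in treadmill WT and 128, 136 and 147 CPM in sedentary WT. KO and WT libraries covered the same range, and the averaged log2 fold change was 0.02 (95% interval -0.09 to 0.12). Psmb7, the trypsin-like subunit gene, had 237, 259.8 and 240.4 CPM in treadmill KO and 229.6, 236 and 233 CPM in sedentary KO, against 227, 238 and 236 CPM in treadmill WT and 198, 226 and 246 CPM in sedentary WT. Its lowest library was sedentary WT replicate 1, and the averaged log2 fold change was 0.06 (95% interval -0.06 to 0.19), or 0.01 without lanes 7 and 8. An exon of Nek6 overlaps 405 bases of Psmb7 on the other strand, and since the library kit does not mark strand, reads there cannot be told apart.

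**Figure D2:**
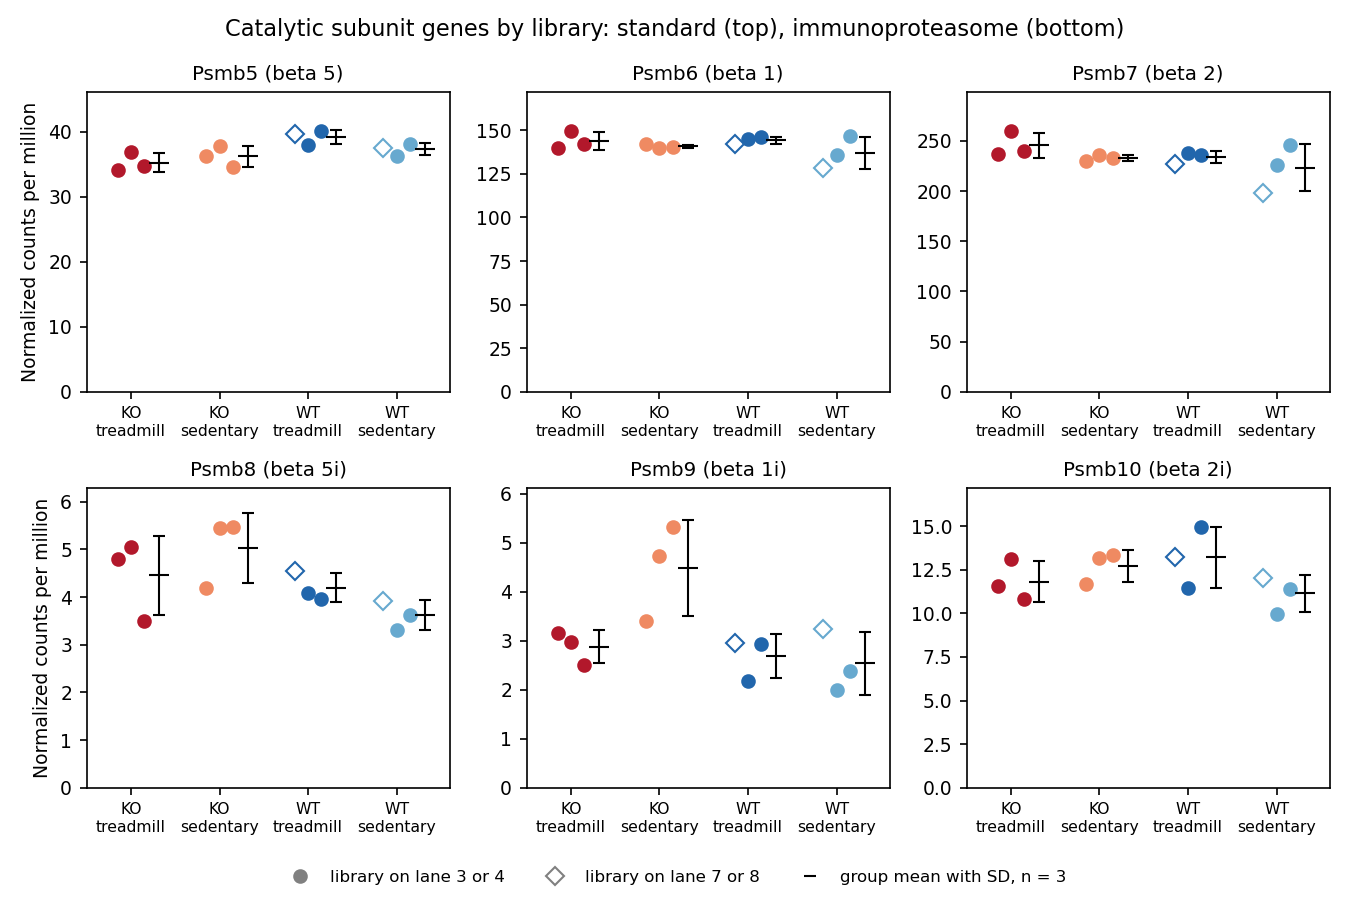
Normalized CPM of the catalytic subunit genes of the standard proteasome (top) and of their immunoproteasome counterparts (bottom) in each of the 12 libraries, with group mean and SD (n = 3); open diamonds are the 2 WT libraries of lanes 7 and 8. Each axis starts at 0. KO and WT libraries of Psmb6 and Psmb7 overlap, and the treadmill KO libraries of Psmb5 lie slightly below its treadmill WT libraries. Psmb8 and Psmb9 of the sedentary KO libraries all lie above those of the sedentary WT libraries.

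Among the other core genes, those with the smallest p in the averaged knockout effect were Psma1 and Psmb2. Psma1, a gene of the outer ring, had 139, 142 and 142 CPM in treadmill KO and 137, 142 and 142 CPM in sedentary KO, against 112, 133 and 135 CPM in treadmill WT and 107, 129 and 147 CPM in sedentary WT. The 6 KO libraries lay within 137 to 142 CPM while the WT libraries ran from 107 to 147 CPM, with the lanes 7 and 8 libraries lowest. Its averaged log2 fold change was 0.15 (SE 0.07, adjusted p = 0.440), and 0.05 with lane as a term. Psmb2, a non-catalytic gene of the inner ring, had 66.8, 64.8 and 71.8 CPM in treadmill KO and 65.0, 59.6 and 65.5 CPM in sedentary KO, against 59.0, 61.1 and 67.4 CPM in treadmill WT and 53.1, 64.2 and 62.4 CPM in sedentary WT. The genotypes overlapped, and its averaged effect was 0.10 on the log2 scale (adjusted p = 0.532), or 0.04 without lanes 7 and 8.

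Among the cap genes the smallest p belonged to Psmd14, Psmc1 and Psmc6. Psmd14 encodes the deubiquitinase of the cap, which removes ubiquitin chains as substrates enter. It had 78.1, 83.9 and 77.0 CPM in treadmill KO and 78.0, 78.0 and 70.5 CPM in sedentary KO, against 65.2, 69.7 and 71.5 CPM in treadmill WT and 64.1, 70.0 and 77.3 CPM in sedentary WT. The treadmill groups did not overlap and the sedentary groups did. With a log2 fold change of 0.16 in the averaged effect (SE 0.06) its adjusted p of 0.292 was the smallest of the core and cap genes. Without lanes 7 and 8 the value for Psmd14 was 0.10.

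The ATPase ring genes Psmc1 and Psmc6 followed. Psmc1 had 126, 117 and 138 CPM in treadmill KO and 123, 114 and 111 CPM in sedentary KO, against 108, 115 and 122 CPM in treadmill WT and 103, 111 and 108 CPM in sedentary WT. Its averaged log2 fold change was 0.13 (SE 0.06, adjusted p = 0.380). Psmc6, one of the highest genes of the set, had 217, 233 and 206 CPM in treadmill KO and 216, 221 and 212 CPM in sedentary KO, against 187, 204 and 195 CPM in treadmill WT and 164, 208 and 225 CPM in sedentary WT. The highest value of Psmc6 in WT exceeded most KO values, and the log2 fold change of 0.14 (SE 0.07) had an adjusted p of 0.430. It was 0.07 for Psmc6 without lanes 7 and 8, and 0.09 for Psmc1.

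**Figure D3:**
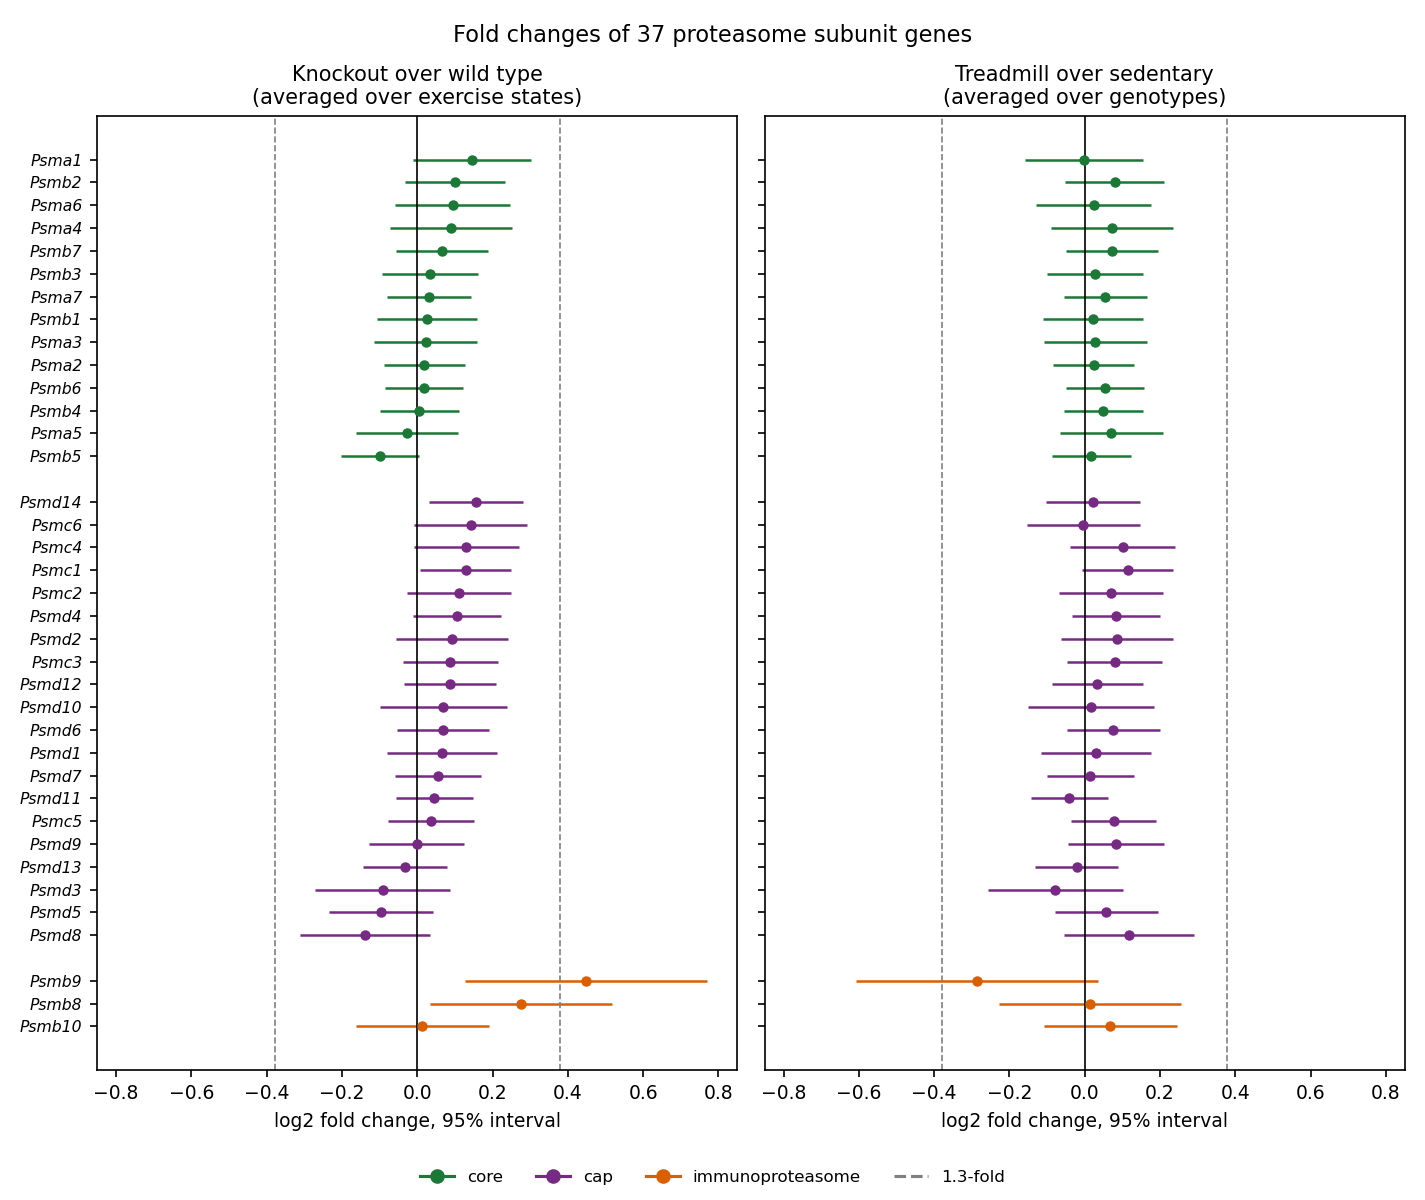
Log2 fold change with its 95% interval for 37 proteasome subunit genes, knockout over wild type averaged over exercise states (left) and treadmill over sedentary averaged over genotypes (right), with genes in the same order in both. Dashed lines mark 1.3-fold in either direction. All 34 core and cap intervals lie between the dashed lines in both comparisons; the interval of Psmb9 reaches past them in both and that of Psmb8 in the knockout comparison.

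Direction was read by group of genes, with the KO libraries compared with the same WT libraries in every gene. In the averaged knockout effect 12 of 14 core genes and 15 of 20 cap genes had a value above 0, with median log2 fold changes of 0.03 and 0.07; over all genes tested the median was 0.01 and 53.0% lay above 0. In sedentary mice the counts were 12 of 14 and 15 of 20, with medians of 0.04 and 0.05. In treadmill mice they were 8 of 14 and 15 of 20, with medians of 0.02 and 0.10. None of these genes passed the test, so the counts describe signs and not called changes.

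The core count in sedentary mice rested on 1 library. Without sedentary WT replicate 1, the library of lane 7, 2 of 14 core genes lay above 0 in place of 12, with a median of -0.02, and 11 of 20 cap genes, with a median of 0.01. In the averaged effect 8 of 14 core genes lay above 0 without that library, and 7 of 14 with lane as a term, where the core median was 0.00 and the cap median 0.04. Without treadmill KO replicate 2 the averaged core count was also 7 of 14. Lane 3 alone and lane 4 alone were fitted with genotype only, with exercise states mixed. Each gave 7 of 14 core genes above 0, and they gave 13 and 14 of 20 cap genes.

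**Figure D4:**
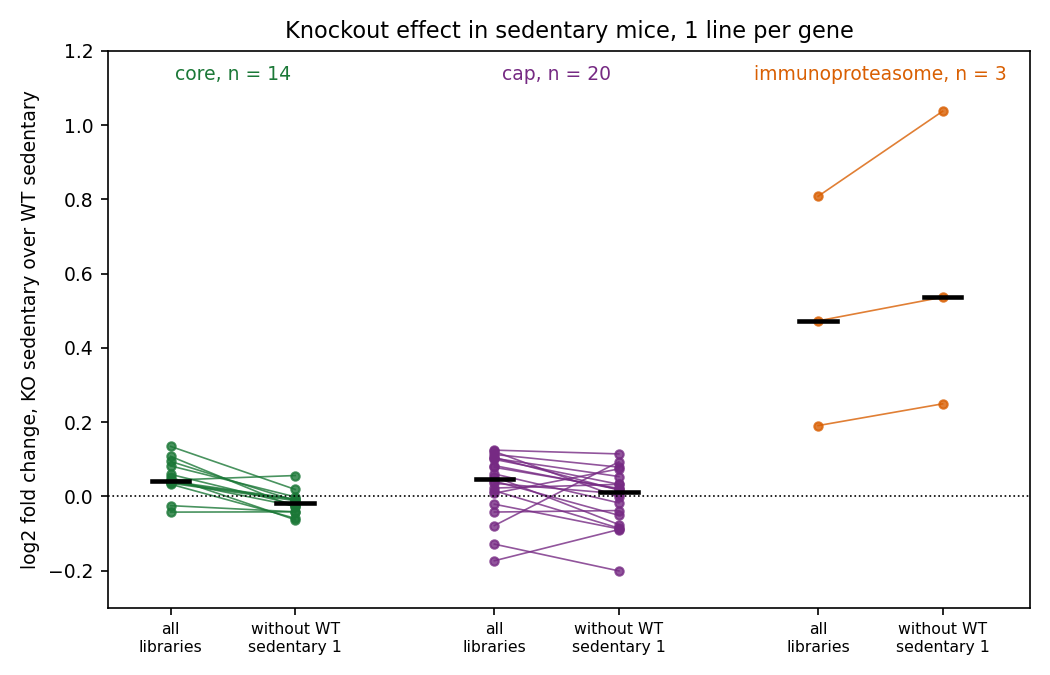
Log2 fold change of sedentary KO over sedentary WT for each gene with all 12 libraries and without sedentary WT replicate 1, with 1 line per gene and black bars at the median of a group of genes. The core median is 0.04 with all libraries and -0.02 without that replicate, and the immunoproteasome genes lie above 0 in both.

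The lanes themselves were compared in the model that holds a lane effect. Between lanes 7 and 8 and lanes 3 and 4, 11 of 38 proteasome genes were called, where 18.9% of all genes were. The genes named from this comparison were chosen after their values were seen. Lower in lanes 7 and 8 were 9 genes (9.5% of all genes), with Psma1 (log2 difference -0.31), Psma6 (-0.29) and Psma4 (-0.28) furthest, and higher (9.43% of all genes) were the cap genes Psmd3 (0.37) and Psmd8 (0.33). Psmd8, for example, had 258, 247 and 252 CPM in treadmill KO and 225, 223 and 235 CPM in sedentary KO, against 326, 244 and 245 CPM in treadmill WT and 287, 264 and 219 CPM in sedentary WT. The WT values of 326 and 287 CPM are those of lanes 8 and 7. Each of these lanes held only replicate 1 of a WT group. Lane can therefore not be told apart from replicate number or from differences between these samples and the other WT samples.

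For the 5 genes whose promoter windows hold the antioxidant response letters, the averaged log2 fold changes for the knockout were -0.10 for Psmb5, 0.02 for Psmb6, 0.14 for Psmc6, 0.09 for Psmd12 and -0.00 for Psmd9, and none passed. In the same libraries 7 of the 12 tested genes of a list of NRF2 targets fell: Aox1, Gclc, Gsr, Nqo1, Osgin1, Srxn1 and Txnrd1. That list was chosen with earlier results of these data known. Nqo1, a quinone reductase, had a log2 fold change of -1.84 (adjusted p = 2.49e-07), and Gsr, glutathione reductase, had the smallest of the 7, -0.40 (adjusted p = 0.0123). A count of 80 of all 14194 genes (0.564%) fell in this comparison.

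The immunoproteasome genes stood apart in level and in spread. Psmb8 and Psmb9 lie on chromosome 17, at 34197721 to 34201454 and 34181987 to 34187764, beside the peptide transporter gene Tap1, and 212 bases of Psmb9 overlap an exon of Tap1 on the other strand, so counts there are uncertain. Per length, Psmb8 came to 4.01% ± 0.703 of Psmb5 in treadmill KO and 4.43% ± 0.689 in sedentary KO, against 3.40% ± 0.253 in treadmill WT and 3.09% ± 0.220 in sedentary WT (SD, n = 3 each). Psmb9 came to 1.03% ± 0.128 of Psmb6 in treadmill KO and 1.63% ± 0.363 in sedentary KO, against 0.952% ± 0.162 in treadmill WT and 0.958% ± 0.291 in sedentary WT. Psmb10 came to 12.9% ± 0.751 of Psmb7 in treadmill KO and 14.7% ± 0.923 in sedentary KO, against 15.2% ± 2.10 in treadmill WT and 13.6% ± 2.39 in sedentary WT. The standard catalytic genes thus held most of the transcript of each pair in every library. If reads that Psmb5 shares with its copies were left out, the percentages of Psmb8 are too high.

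Psmb9, which replaces the caspase-like subunit, had 3.16, 2.98 and 2.50 CPM in treadmill KO and 3.41, 4.73 and 5.32 CPM in sedentary KO, against 2.95, 2.17 and 2.94 CPM in treadmill WT and 3.24, 1.99 and 2.39 CPM in sedentary WT. These values rest on 44 to 144 counts per library. The sedentary KO libraries lay above the sedentary WT libraries and above the treadmill KO libraries, and the treadmill KO and WT libraries overlapped. For sedentary KO over sedentary WT the log2 fold change was 0.81 (SE 0.21), and its 95% interval reached down to 0.36. The adjusted p was 0.260, so it did not pass. With lane as a term the log2 fold change was 1.0 and the adjusted p 0.0296, and without a filter on low counts 0.79 and 0.0041, so that 1 of 38 proteasome genes was called in each. Of all genes 0.571% were called with lane as a term (0.169% higher in KO) and 1.23% without a filter (0.505% higher in KO). Over the 19 alternatives the adjusted p ran from 0.0041 to 0.712. By DESeq2 it was 0.0858. Over both exercise states, the knockout effect of Psmb9 by edgeR was 0.85 within lane 3 (adjusted p = 0.101) and 0.44 within lane 4 (adjusted p = 0.963). These fits held genotype only, and the exercise states of their KO libraries differed. Lane 3 held sedentary KO replicates 1 and 2 and treadmill KO replicate 1. Lane 4 held sedentary KO replicate 3 and treadmill KO replicates 2 and 3.

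Psmb8, which replaces the chymotrypsin-like subunit, had 4.80, 5.06 and 3.50 CPM in treadmill KO and 4.19, 5.45 and 5.47 CPM in sedentary KO, against 4.54, 4.09 and 3.96 CPM in treadmill WT and 3.93, 3.31 and 3.63 CPM in sedentary WT. The sedentary groups did not overlap, and the log2 fold change there was 0.47 (SE 0.16, adjusted p = 0.460). Psmb10, which replaces the trypsin-like subunit, had 11.6, 13.1 and 10.8 CPM in treadmill KO and 11.7, 13.2 and 13.3 CPM in sedentary KO, against 13.2, 11.4 and 14.9 CPM in treadmill WT and 12.0, 9.98 and 11.4 CPM in sedentary WT. All 4 groups of Psmb10 overlapped, and its averaged log2 fold change was 0.01 (adjusted p = 0.969). In sedentary mice 3 of the 38 genes had KO libraries that all lay above the WT libraries, Psmb8, Psmb9 and Psmc1, where 6.47% of all genes did so, and no gene lay the other way (5.48% of all genes). In treadmill mice Psma1, Psmc6, Psmd11, Psmd12 and Psmd14 lay higher in KO (5.88% of all genes) and Psmb5 and Psmd5 lower (7.16%). Over all 12 libraries no proteasome gene separated the genotypes, as 0.486% of all genes did with KO higher.

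Other genes of antigen processing and of the interferon response were read beside them. Of all genes tested 53.0% lay above 0 in sedentary mice and 51.7% in treadmill mice. In sedentary mice 9 of 10 genes of antigen peptide loading lay above 0 and 0 passed; the list's median was 0.30 on the log2 scale. Their summed level was 377 to 462 CPM in sedentary KO and 322 to 366 CPM in sedentary WT. B2m, the light chain of class I molecules, had a log2 fold change of 0.41 (SE 0.11, adjusted p = 0.260). Of 24 interferon-stimulated genes 21 lay above 0, with a median of 0.27, and 0 passed; their summed level was 149 to 184 CPM in sedentary KO and 125 to 142 CPM in sedentary WT. In treadmill mice 8 of 10 antigen loading genes (median 0.10) and 12 of 24 interferon-stimulated genes (median -0.00) lay above 0. Without lanes 7 and 8 all 10 antigen loading genes lay above 0 in sedentary mice (median 0.39) and in treadmill mice (0.17). Of the 24 interferon-stimulated genes 22 (median 0.22) and 16 (0.08) did so, and 0 passed in either list.

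Cells other than fibres can carry these transcripts, and in whole muscle more such cells and more RNA per cell cannot be told apart. In sedentary mice 12 of 16 macrophage and antigen presentation markers lay above 0, 0 passed, and their summed level was 406 to 526 CPM in KO and 282 to 479 CPM in WT. Endothelial markers lay above 0 in 5 of 6 genes and summed to 189.6 to 217 CPM in KO and 157 to 182 CPM in WT, and fibroblast markers in 5 of 6 genes, at 1549 to 1662 CPM in KO and 1353 to 1584 CPM in WT. Lymphocyte markers summed to 1.21 to 1.85 CPM in KO and 0.662 to 1.45 CPM in WT, and Cd3d, Cd79a, Ms4a1, Cd8a, Nkg7 and Gzma each had 0 counts in some library. Neutrophil markers summed to 0.389 to 0.628 CPM in KO and 0.427 to 1.23 CPM in WT, with 0 counts in some library for all 5 genes. In treadmill mice 5 of 16 macrophage and antigen presentation markers, 5 of 6 endothelial markers and 2 of 6 fibroblast markers lay above 0. The macrophage and fibroblast markers also moved with lane. In lanes 7 and 8, 11 of 16 and 5 of 6 were called higher than in lanes 3 and 4 (9.43% of all genes). Their medians were 0.75 and 0.66. Of the antigen loading genes 3 of 10 were called higher (median 0.25), and of the interferon-stimulated genes 0 of 24 (median 0.08). The lane difference was 0.39 for Psmb9 and 0.18 for Psmb8, and neither was called. The sedentary WT maxima of 479 CPM for macrophage, 182 CPM for endothelial and 1584 CPM for fibroblast markers were all the lane 7 library. Without lanes 7 and 8 all 16 macrophage and all 6 fibroblast markers lay above 0 in sedentary mice (medians 0.23 and 0.30) and in treadmill mice (0.48 and 0.27), and 0 passed. Endothelial markers then lay above 0 in 6 of 6 genes in sedentary mice (median 0.27) and 2 of 6 in treadmill mice (-0.07). The part of these cells in the values of Psmb8 and Psmb9 was not tested.

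Treadmill exercise changed no proteasome gene past the threshold in either genotype. None of the 38 genes passed by edgeR in KO mice, in WT mice or averaged over genotypes, and in these comparisons 0.0% of all genes passed. At an unadjusted p under 0.05 edgeR held 1 gene in KO mice (3.76% of all genes), 0 in WT mice (2.17%) and 0 in the averaged effect (4.15%), and DESeq2 and limma-voom called 0. All 34 core and cap intervals of the averaged treadmill effect lay within 1.3-fold, between 0.837-fold for Psmd3 and 1.22-fold for Psmd8. Within KO mice alone 33 of the 34 lay within it, and within WT mice alone all 34.

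Signs leaned upward. In the averaged treadmill effect 13 of 14 core genes and 16 of 20 cap genes lay above 0, with medians of 0.04 and 0.06, where 48.9% of all genes did and their median was 0.00. In KO mice the counts were 12 of 14 and 18 of 20, with medians of 0.02 and 0.08. In WT mice they were 13 of 14 and 13 of 20, and without sedentary WT replicate 1 they were 6 of 14 and 9 of 20. The averaged counts were then 9 of 14 and 13 of 20. Without treadmill KO replicate 2, without sedentary KO replicate 1, or with lane as a term, the core count in KO mice was 8 of 14.

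The genes with the smallest p in the averaged treadmill effect were Psmb2, Psmb7 and Psmb6 of the core and Psmc1, Psmc4 and Psmd4 of the cap. Psmc1, whose libraries are given above, had the largest value of the 6, 0.11 (SE 0.06, adjusted p = 0.971). Psmc4, another gene of the ATPase ring, had 74.9, 72.3 and 89.1 CPM in treadmill KO and 69.8, 68.9 and 76.4 CPM in treadmill WT, against 79.2, 68.1 and 72.1 CPM in sedentary KO and 66.4, 71.4 and 63.5 CPM in sedentary WT. Psmd4, which encodes a ubiquitin receptor of the cap, had 158, 148 and 171 CPM in treadmill KO and 141, 145 and 157 CPM in treadmill WT, against 151, 150.01 and 148 CPM in sedentary KO and 131, 149 and 139.7 CPM in sedentary WT. Treadmill and sedentary libraries of both genes overlapped, and their averaged log2 fold changes were 0.10 and 0.08 (adjusted p = 0.971 each).

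In KO mice 5 genes had treadmill libraries that all lay above the sedentary libraries, Psmb7, Psmd6, Psmd8, Psmd9 and Psmd12, where 5.75% of all genes did so, and 1, Psmb9, had them all below (6.76% of all genes). For Psmb9 the log2 fold change of treadmill over sedentary KO was -0.64 (SE 0.21, adjusted p = 1). In WT mice the genes were Psmb4, Psmb8 and Psmc5 above (2.85%) and Psmd11 below (2.87%). No proteasome gene separated all treadmill from all sedentary libraries, as 0.0775% of all genes did in either direction.

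The interaction asks whether the treadmill effect differed between KO and WT mice. It called 0 of the 38 genes by edgeR, by DESeq2 and by limma-voom, and 0.0% of all genes by edgeR. At an unadjusted p under 0.05 it held Psmb9 (log2 difference -0.72, SE 0.30) and Psmb10 (-0.35, SE 0.16), both with an adjusted p of 1, where 1.9% of all genes were under it. The medians were -0.01 over the core genes, 0.04 over the cap genes and -0.39 over the 3 immunoproteasome genes, and all 3 of those lay below 0. Without sedentary WT replicate 1 the core median was 0.05, with 12 of 14 genes above 0 in place of 3, and the 3 immunoproteasome genes still lay below 0 (median -0.46). The intervals were wider here, and 30 of 34 core and cap intervals lay within 1.3-fold.

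Genes that act with the proteasome were read from lists. None of the 5 genes of activators and inhibitor and none of the 6 genes of assembly chaperones passed in any of the 7 comparisons. Psme1, which encodes an interferon-induced activator, had a log2 fold change of 0.25 in sedentary mice (adjusted p = 0.621), and Psme2, its partner, of 0.02. Psme3 and Psme4, which encode nuclear activators, had averaged values of -0.00 and -0.03. Pomp, the maturation factor of the core, averaged 68.9 ± 1.66 CPM in KO and 81.6 ± 18.7 CPM in WT (SD, n = 6 each). Its WT values of 112 and 96.0 CPM came from lanes 8 and 7, and the averaged log2 fold change of -0.25 did not pass (adjusted p = 0.413). Without lanes 7 and 8 it was -0.03 for Pomp (adjusted p = 0.873).

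Nfe2l1, the NRF2 relative that drives subunit genes, had 605 to 637 CPM in the 6 KO libraries and 639 to 715 CPM in the 6 WT libraries. The genotypes did not overlap, as in 1.3% of all genes that were lower in KO, but the log2 fold change of -0.13 (SE 0.05) had an adjusted p of 0.301. Ubb, a polyubiquitin gene, was the 1 gene of 6 in its list to pass: it rose to 8.32 ± 0.371 CPM in KO, against 6.20 ± 0.875 CPM in WT (SD, n = 6 each; log2 fold change 0.43, SE 0.09, adjusted p = 0.0319). In 10 of 19 alternatives Ubb did not pass, with an adjusted p of up to 0.0914 without sedentary KO replicate 3. Without lanes 7 and 8 its averaged log2 fold change by edgeR was 0.35 (adjusted p = 0.0675). It was then 0.21 in sedentary and 0.48 in treadmill mice. Of 10 muscle ubiquitin ligase genes 1 fell, Trim54, a ring finger protein of the sarcomere, with 132 ± 6.41 CPM in KO and 186 ± 11.3 CPM in WT (log2 fold change -0.50, SE 0.05, adjusted p = 0.00022). In the averaged effect Ubb was among the 0.127% of all genes that rose, and Trim54 among the 0.564% that fell.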

How the data were processed

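RNA sequencing libraries of 12 mouse muscle samples were analysed. The kit was TruSeq RNA v2, per the labels' protocols, and it leaves strand unmarked. STAR 2.4.1d, the genome build GRCm38, featureCounts 1.4.6-p4 and bcl2fastq 1.8.4 appear in the submitters' processing notes. Neither the annotation nor the settings for strand and for reads matching several places were stated. All tests rest on the whole-number counts that the authors deposited for each gene. They also deposited RPKM values, in which the 12 library totals run down the table: the implied gene length was constant within 0.1% in 1641 of 1641 well-counted genes with totals in that order and in 0 with each library's own. The RPKM table therefore served only to recover gene lengths. Symbols and coordinates came from GENCODE M21.

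The counts entered edgeR 4.0.16 (R 4.3.3): TMM factors, filterByExpr (minimum count 10, minimum total 15; 14194 genes and 99.94% of counts kept), a quasi-likelihood test on a model of the 4 groups (8 residual degrees of freedom), and Benjamini-Hochberg adjustment over all genes tested, with a threshold of 0.05. The common biological coefficient of variation was 0.112. A total of 7 comparisons were made, and intervals of fold changes are at 95%. The intervals use 14.1 degrees of freedom, the residual ones plus those that edgeR borrows across genes. The test was checked on simulated counts. Pairs of libraries correlated at 0.985 to 0.993 on log2 CPM, and every pair differed beyond counting noise (mean chi-square of at least 6.4 per gene).

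Alternatives were DESeq2 1.42.0, limma-voom (limma 3.58.1), DESeq2 size factors, no filter, lane as a term, lanes 7 and 8 left out, each lane alone, the replicate block and each library left out in turn. Same-numbered libraries deviated together between the WT groups (correlations 0.54, 0.30 and 0.26). There the numbers also follow the lanes: replicate 1 was on lanes 7 and 8, replicate 2 on lane 3 and replicate 3 on lane 4. Pairing and lane cannot be told apart in them, and the labels state no pairing. In each other combination of groups at least 1 of the 3 correlations was below 0.1. The genes and the 15 lists of other genes were chosen with earlier results of these data known. Genes named with every library's value were those called in a comparison, the catalytic genes, and the 3 core and 3 cap genes with the smallest p in each averaged effect; genes at either end of the order of levels and those not tested were named too. Psmd8 was given in full outside this rule, after its values were seen, to show the lane difference.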

Additional observations from a re-analysis of the deposited data

How the results depend on the processing

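The count of proteasome genes past the threshold was 0 in all 7 comparisons under the 19 alternatives, with 2 exceptions, both in sedentary mice: it was 1 with lane as a term and 1 without a filter on low counts, Psmb9 each time. Leaving out each library in turn gave counts of 0 to 0 in every comparison. The replicate block called 0 of the 38 genes in each of the 7 comparisons. Psmb6 and Psmb10 had averaged knockout effects near 0 whose sign turned under some alternatives. For Psmb6 the log2 fold change was -0.01 with lane as a term and -0.011 without lanes 7 and 8, and it ran from -0.006 without sedentary WT replicate 1 to 0.039 over the libraries left out in turn, with -0.003 without treadmill KO replicate 2. For Psmb10 it was -0.002 without a filter on low counts, and it ran from -0.036 to 0.055 over the libraries left out in turn, below 0 without sedentary KO replicate 3, treadmill KO replicate 2, sedentary WT replicate 2 or treadmill WT replicate 2. The causes were not tested. For Psmb9 depth limits the statement, with 44 to 144 counts per library, and its log2 fold change in sedentary mice ran from 0.66 to 1.04 over the alternatives.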
